A study of Drosophila melanogaster with 6 samples.

Results

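The pore-forming genes of sodium, calcium, hyperpolarization-activated and leak channels were followed in dFezf1 and WT L3 neurons. The genes are para, cac, Ca-alpha1D, Ca-alpha1T, Ih, na, NaCP60E, Irk1, Irk2 and Ork1. They were chosen by symbol, and all 10 were found among the 13727 genes of the authors' deposited table. L3 neurons are a lamina neuron type of the fly optic lobe, and they were sorted by fluorescence from this tissue 24 h after puparium formation. RNA was compared between 3 dFezf1 samples, which carry an allele of the transcription factor gene dFezf (also called earmuff, erm), and 3 WT samples, whose titles name the FRT40 chromosome. The sources used here name neither the marker or driver used for sorting nor whether FRT40 was also present in the dFezf1 samples. The sample titles carry dates of 12 to 14 December for dFezf1 and of 28 to 30 November for WT, so title date and genotype cannot be told apart.

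Voltage-gated sodium channels open on depolarization and carry the upstroke of action potentials, while voltage-gated calcium channels turn depolarization into calcium entry, at presynaptic terminals the trigger of transmitter release. Channels of the Ih type open instead when the membrane hyperpolarizes and pass a depolarizing mixed cation current. Sodium leak, inward rectifier and two-pore-domain potassium channels pass current near rest and set how far the resting potential lies from threshold. In insect optic lobes lamina neurons are known for graded responses to photoreceptor input, so the mix of these conductances bears on how they signal.

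Every value was taken from the authors' deposited table. Its entries for a gene are an average normalized count across the libraries, a mean abundance for each genotype in a unit that is not named but that scales with the inverse of gene length, and a log2 fold change of dFezf1 over WT that was shrunken toward 0, with its standard error (SE), called the log2 change from here on. Calls were made where the adjusted p, taken over 9387 tested genes, was under 0.05. Values per library were not used, so no spread is available around a group mean, and the SE of the fold change is the error given. In sorted bulk RNA, fewer cells that express a gene and less RNA per cell cannot be told apart.

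The samples carried neuronal and L3 transcripts. In the authors' deposited table erm had a mean abundance of 49.2 in dFezf1 and 55.1 in WT. The genes listed here for L3, erm, NetB, Fas3 and CadN, summed to 199 in dFezf1 and 381 in WT. Whether each of them is particular to L3 was not tested. Fas3 gave 67.6 of the sum in dFezf1 and 253 in WT in the authors' deposited table. Of the listed genes, NetB and Fas3 were called lower in the authors' deposited table. CadN went the other way, at 82.3 in dFezf1 and 41.4 in WT. Its log2 change was 1.05 ± 0.40, with an adjusted p of 0.111 per the authors' deposited table. The neuronal marker elav was at 63.6 in dFezf1 and 52.6 in WT in the authors' deposited table. The 7 glial markers summed to 8.93 in dFezf1 and 2.48 in WT, and none was called in the authors' deposited table (1 at an unadjusted p under 0.05). Gs2 gave 4.08 of the glial sum in dFezf1 and 0.262 in WT, and Eaat1 alone had a lower mean in dFezf1. The 12 photoreceptor markers summed to 19.6 in dFezf1 and 11.1 in WT in the authors' deposited table, with ninaE, trp, Rh3, Rh4, Rh5 and Rh6 at 0 in both genotypes and norpA giving 15.9 of the sum in dFezf1 and 9.55 in WT. The 6 neuronal markers summed to 289 in dFezf1 and 184 in WT in the authors' deposited table. Of these, 4 synaptic genes had an unadjusted p under 0.05, with log2 changes of 0.83 ± 0.41 for nSyb, 0.92 ± 0.39 for Syt1, 1.03 ± 0.41 for brp and 1.48 ± 0.40 for Syn, and Syn alone was called higher in the authors' deposited table. Markers of other lamina neurons summed to 2.72 in dFezf1 and 0.433 in WT in the authors' deposited table, where svp was the 1 of 5 tested that was called. svp gave 2.02 of that sum in dFezf1 and 0.0408 in WT, while bab1, bsh and pdm3 had lower means in dFezf1 than in WT. Progenitor, blood cell and muscle markers summed to 0.313, 0.0105 and 0.853 in dFezf1 and to 0.0384, 0.00788 and 0.431 in WT in the authors' deposited table, and none was called (0 at an unadjusted p under 0.05). The part that these shifts have in the channel results was not tested.

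Of the 10 channel genes 8 were tested, 4 were higher in dFezf1 and 1 was lower in the authors' deposited table. The higher genes were Ih, cac, na and para, and the lower gene was Irk1. Over all tested genes 6.82% were called, 4.33% higher and 2.49% lower, against 4 and 1 of the 8 tested channel genes in the authors' deposited table. The median log2 fold change of the 8 was 1.5, against 0.03 over all tested genes in the authors' deposited table. At an adjusted p under 0.01, which 3.26% of tested genes passed as higher and 1.79% as lower, the called members were Ih, cac and Irk1. Under the other rules tried on the authors' deposited table the same 4 members were called higher. The share of all tested genes called higher was then 4.09% without the filter on low counts, 3.24% at a count of at least 100, 1.99% with both group means above 0 and 2.38% where the 95% interval of the fold change also excludes 0. Irk1 was called lower by the first of these rules, beside 2.37% of all tested genes, and by none of the others, beside 1.83%, 1.19% and 1.45%. The rules on counts and on group means leave Irk1 out of the test. Irk2 and Ork1 had an average normalized count of 0 and no test.

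**Figure D1:**
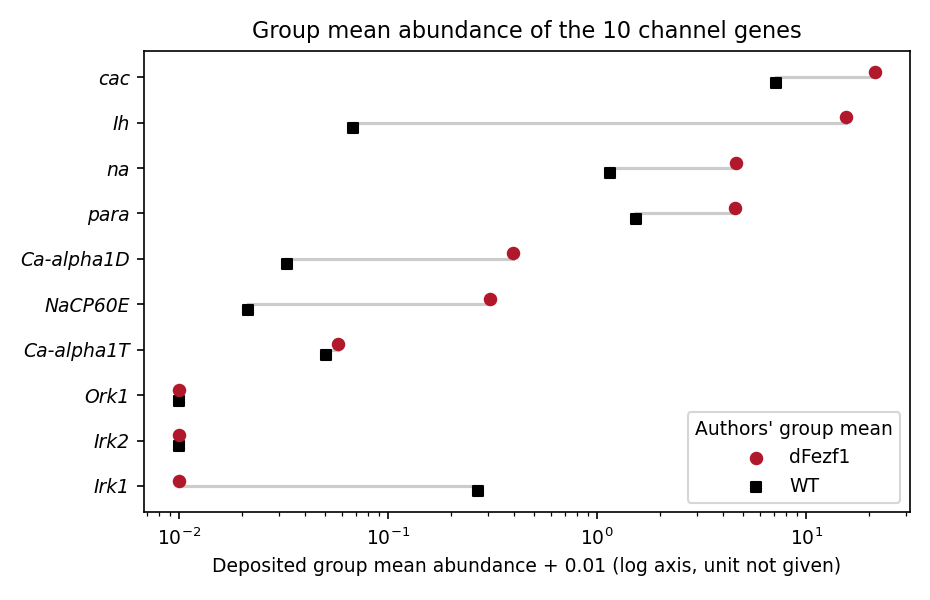
Mean abundance of the 10 channel genes in dFezf1 (circles) and WT (squares), as given in the authors' deposited table, on a log axis after adding 0.01. Ih lies at 15.5 in dFezf1 and 0.0581 in WT, the widest gap drawn, and Ork1 and Irk2 lie at 0 in both.

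By level per length in the authors' deposited table, cac, para and na were above 1 in both genotypes and Ih in dFezf1 alone, while the other genes were under 1 in both. In dFezf1 the order of mean abundance in the authors' deposited table was cac, Ih, na, para, Ca-alpha1D, NaCP60E and Ca-alpha1T, followed by Irk1, Irk2 and Ork1 at 0. In WT the order in the authors' deposited table was cac, para, na, Irk1, Ih, Ca-alpha1T, Ca-alpha1D and NaCP60E, followed by Irk2 and Ork1 at 0. Whether neighbours in these orders differ could not be judged, since the group means carry no spread. Of the summed abundance of the 10 genes, cac made up 45.6% in dFezf1 and 70.0% in WT in the authors' deposited table. The share of Ih was 33.2% in dFezf1 and 0.569% in WT in the authors' deposited table. The sum itself was 46.7 in dFezf1 and 10.2 in WT in the authors' deposited table.

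para encodes the main voltage-gated sodium channel of fly neurons, the one on which their action potentials rest. Its mean abundance in the authors' deposited table was 4.56 in dFezf1 and 1.52 in WT. It rose by 1.45 ± 0.45 (SE) on the log2 scale, a 2.73-fold change, with an adjusted p of 0.0246 per the authors' deposited table. Among tested genes of the authors' deposited table, para stood at the 64.8th percentile in dFezf1 and at the 45.2nd in WT. In the annotation of build BDGP6 para lies on chromosome X from 16455027 to 16533096 on the minus strand, with 60 annotated transcripts that a value per gene does not separate. Cnx14D lies within it on the same strand, and its average normalized count in the authors' deposited table was 7.79, against 2804 for para.

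NaCP60E encodes a further channel of the sodium channel family, known in flies as a calcium-permeable channel. It was scarce in both genotypes, with a mean abundance of 0.298 in dFezf1 and 0.0113 in WT in the authors' deposited table. Its log2 change was 1.81 ± 0.80 (95% interval 0.24 to 3.38), but its adjusted p was 0.0852 and it was not called in the authors' deposited table. NaCP60E (chromosome 2R, 24891614 to 24921677, plus strand) has other genes within its span. The ribosomal protein gene RpL41 lies in it on the opposite strand at an average normalized count of 9304 per the authors' deposited table, against 145 for NaCP60E. RpL41 was at 1754 in dFezf1 and 1722 in WT, with a log2 change of 0.04 ± 0.36 per the authors' deposited table. No source used here says whether counting used strand, and the origin of the few reads of NaCP60E was not tested.

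The subunits and regulators of the sodium channel were read beside all tested genes, of which 6.82% were called. Of 7 tested genes none was called in the authors' deposited table (1 at an unadjusted p under 0.05). A list this short can hold no call at that share. Of the 7, 6 had a positive log2 change, and the median was 0.54, against 0.03 over all tested genes. tipE, whose product is an accessory subunit that raises Para currents, was at 10.4 in dFezf1 and 9.90 in WT in the authors' deposited table, with a log2 change of 0.24 ± 0.37. Its relatives Teh1 and Teh2 were well expressed, Teh1 at 26.1 in dFezf1 and 21.2 in WT and Teh2 at 48.9 in dFezf1 and 29.5 in WT in the authors' deposited table. Teh2 had a log2 change of 0.73 ± 0.33 with an unadjusted p of 0.0281 and an adjusted p of 0.253 per the authors' deposited table. In mean abundance Teh2 stood 10.7 times over para in dFezf1 and 19.4 times in WT in the authors' deposited table. Teh3 and Teh4 had log2 changes of -0.26 ± 0.63 and 0.80 ± 0.77 per the authors' deposited table. pum, which encodes an RNA-binding repressor of para translation, had 0.55 ± 0.33 and mle, a helicase gene that acts in para splicing, had 0.54 ± 0.64 as log2 fold changes in the authors' deposited table. nanos, listed as the partner of pum, had an average normalized count of 0.240 and no adjusted p in the authors' deposited table.

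Among the 3 calcium channel genes only cac was called. cac encodes the pore of the calcium channel that drives transmitter release at fly synapses, and it was the most abundant of the 10 genes in both genotypes. Its mean abundance was 21.3 in dFezf1 and 7.16 in WT in the authors' deposited table, at the 89.2nd percentile of tested genes in dFezf1 and the 73.0th in WT. The log2 change of cac was 1.55 ± 0.40 (95% interval 0.76 to 2.34), a 2.93-fold rise, with an adjusted p of 0.00264 per the authors' deposited table. cac lies on chromosome X from 11931280 to 11985087 on the minus strand, and no other annotated gene overlaps it in build BDGP6. The ratio of cac to para in mean abundance was 4.68 in dFezf1 and 4.70 in WT in the authors' deposited table.

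Ca-alpha1D encodes the L-type and Ca-alpha1T the T-type calcium channel of the fly. Ca-alpha1D was at 0.386 in dFezf1 and 0.0227 in WT in the authors' deposited table, with a log2 change of 1.27 ± 0.77 and an adjusted p of 0.329. Ca-alpha1T was at 0.0477 in dFezf1 and 0.0405 in WT in the authors' deposited table, and its log2 change was 0.04 ± 0.59 (95% interval -1.11 to 1.19). The interval of Ca-alpha1D, -0.24 to 2.79, includes both 0 and the size seen for cac. At an average normalized count of 24.2 for Ca-alpha1T in the authors' deposited table, shrinkage also narrows its interval, so a change of the size of cac is not excluded.

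The 5 listed subunit and regulator genes of calcium channels had log2 changes from -0.22 to 0.51 in the authors' deposited table, and their difference from cac was not tested. None of the 5 was called in the authors' deposited table (0 at an unadjusted p under 0.05), beside 6.82% of all tested genes. The median log2 fold change of the 5 was 0.29. Ca-beta, the gene of the cytoplasmic beta subunit, was at 8.27 in dFezf1 and 7.02 in WT in the authors' deposited table, with a log2 change of 0.29 ± 0.37. The alpha2delta genes stj and stol, whose products take part in channel trafficking, had log2 changes of 0.51 ± 0.35 and -0.04 ± 0.36 per the authors' deposited table. The calmodulin gene Cam, at 761 in dFezf1 and 622 in WT, had a log2 change of 0.36 ± 0.22 per the authors' deposited table. stac, an adaptor gene of calcium channels, was scarce, with a log2 change of -0.22 ± 0.59 per the authors' deposited table. The list leaves out the RGK genes, small GTPase genes whose mammalian relatives inhibit calcium channels, and these were named after their values were seen. Rgk3 was called lower, at 1.30 in dFezf1 and 9.36 in WT, with a log2 change of -2.40 ± 0.52 and an adjusted p of 0.000104 per the authors' deposited table. Rgk1 and Rgk2 were scarce and not called, so that 1 of 8 tested genes was called with the RGK genes included in the authors' deposited table.

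**Figure D2:**
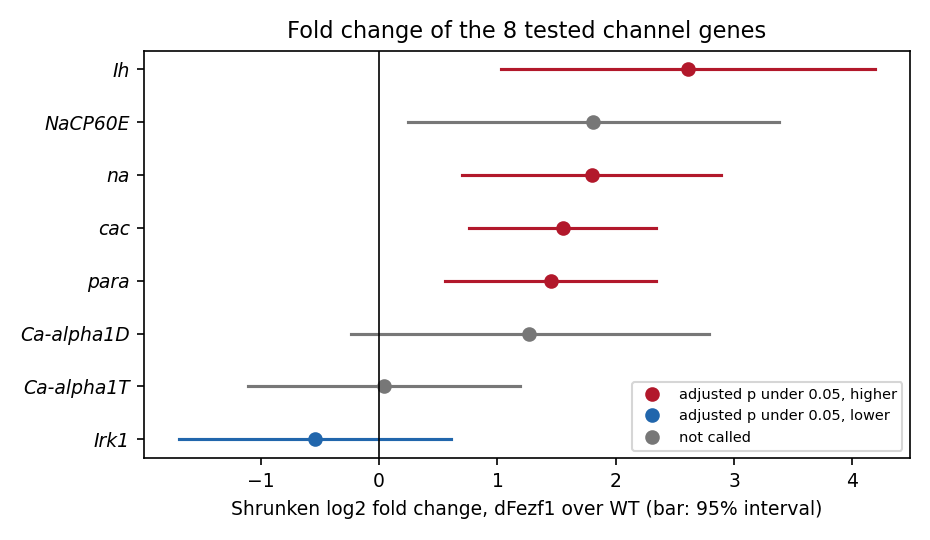
Shrunken log2 fold change of dFezf1 over WT for the 8 tested channel genes, with 95% intervals from the standard errors of the authors' deposited table. Intervals of Ih, na, cac and para exclude 0 and these genes were called higher, that of NaCP60E excludes 0 without a call, and Irk1 was called lower although its interval of -1.69 to 0.61 includes 0.

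Of the members above 0 in both genotypes, Ih had the widest difference between them. It encodes the only HCN-type channel of the fly, opened by hyperpolarization and modulated by cyclic nucleotides. Its mean abundance was 15.5 in dFezf1 and 0.0581 in WT in the authors' deposited table, which is the 85.7th percentile of tested genes in dFezf1, against a percentile of 16.1 in WT. The shrunken log2 change was 2.61 ± 0.81 (95% interval 1.03 to 4.19) with an adjusted p of 2.29e-05 per the authors' deposited table. The log2 ratio of the group means of Ih was 8.06 in the authors' deposited table, 5.45 above the shrunken value. Of 275 called genes with both group means above 0 and an average normalized count of at least 100, Ih had the 13th widest such gap in the authors' deposited table, and the median gap was 0.39. For cac, na and para the gap was 0.03, 0.20 and 0.13 in the authors' deposited table. The size of the rise of Ih therefore depends on which of these measures is read, while its direction does not. The shrunken value of Ih is also imprecise, although its average normalized count was 4068. Its SE of 0.806 equalled, after rounding, the highest SE of a log2 change in the authors' deposited table. An SE at least that of Ih was found in 236 tested genes. How evenly the libraries of each genotype carried Ih was not tested. Ih lies on chromosome 2R from 14276130 to 14300095 on the plus strand, with no other annotated gene overlapping it.

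**Figure D3:**
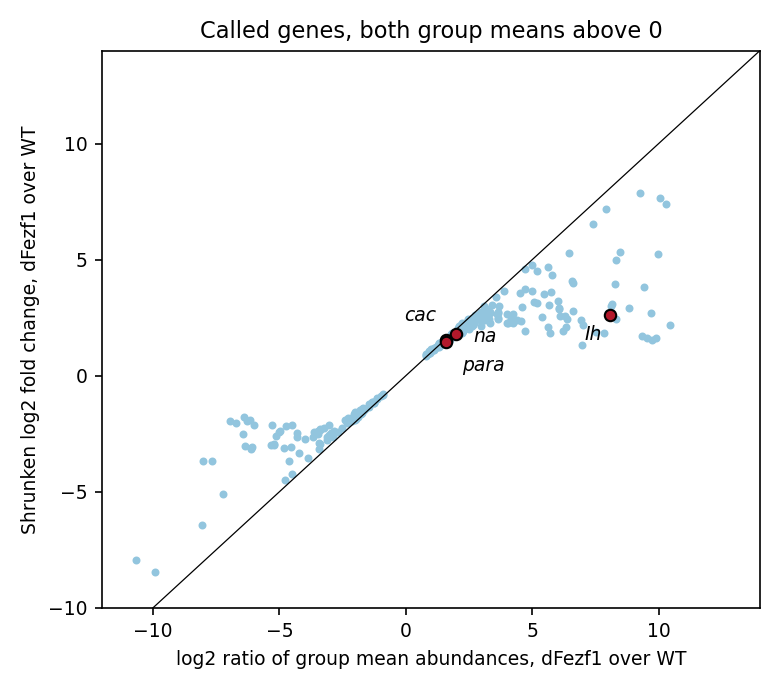
Shrunken log2 fold change against the log2 ratio of group mean abundances, dFezf1 over WT, for the 275 called genes with both means above 0 and an average normalized count of at least 100 in the authors' deposited table. The line marks equality. cac, at 1.57 against a shrunken 1.55, lies near it, and Ih lies below it at 8.06 on the x axis and 2.61 on the y axis.

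The cyclic-nucleotide-gated channel genes Cngl, CngA and CngB were not called. Cngl was abundant, at 26.3 in dFezf1 and 11.1 in WT in the authors' deposited table, and its log2 change of 1.21 ± 0.43 had an adjusted p of 0.0662. CngA and CngB had log2 changes of -0.02 ± 0.79 and -1.06 ± 0.72 per the authors' deposited table. Of the 12 tested TRP and cyclic-nucleotide-gated genes none was called in the authors' deposited table (1, Cngl, at an unadjusted p under 0.05). Over all tested genes 6.82% were called. The median log2 fold change of the 12 was 0.32. The trp and nan genes, which encode channels of photoreceptors and of mechanosensory neurons, were at 0 in both genotypes. Other genes of that list were above 0. Among them trpl was at 2.90 in dFezf1 and 1.19 in WT in the authors' deposited table. There iav was at 0.316 in dFezf1 and 0.140 in WT.

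The sodium leak gene na also rose. na (narrow abdomen) encodes the fly NALCN channel, a voltage-insensitive cation channel that depolarizes the resting membrane and is known for its role in clock neurons. Its mean abundance was 4.59 in dFezf1 and 1.15 in WT in the authors' deposited table. The log2 change was 1.80 ± 0.56 (95% interval 0.70 to 2.89), a 3.48-fold rise, with an adjusted p of 0.0222 per the authors' deposited table. na lies on chromosome X from 14266367 to 14277416 on the plus strand. NALCN channels work in a complex with UNC79, UNC80 and the endoplasmic reticulum protein that fly gene Mid1 (also called Nlf-1) encodes. None of these partners was called in the authors' deposited table, beside 6.82% of all tested genes, and 0 had an unadjusted p under 0.05. Mid1 was at 5.78 in dFezf1 and 3.44 in WT with a log2 change of 0.86 ± 0.44 and an adjusted p of 0.356 per the authors' deposited table. unc80 was at 0.842 in dFezf1 and 0.250 in WT, with a log2 change of 0.79 ± 0.80, and unc79 was at 0.0193 in dFezf1 and 0.0539 in WT, with one of -0.23 ± 0.63, in the authors' deposited table.

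The potassium leak and inward rectifier members were at or near 0. Ork1, the gene of an open-rectifier two-pore-domain channel, and Irk2, an inward rectifier gene, were at 0 in both genotypes in the authors' deposited table. Irk1, which encodes an inward rectifier, was at 0 in dFezf1 and 0.258 in WT in the authors' deposited table, at an average normalized count of 22.1. Its adjusted p was 2.25e-06, while its shrunken log2 change was -0.54 ± 0.59 per the authors' deposited table. Calls of this kind were common among scarce genes with a group mean of 0. Of 480 tested genes with an average normalized count from 10 to 50 and one group mean at 0, 204 (42.5%) were called in the authors' deposited table, and for 199 of the 204 the interval of the fold change included 0. Among the 984 genes of the same range with both means above 0, 6 (0.61%) were called in the authors' deposited table. Irk1 shares its span with CG46310 on the same strand, a gene not analysed here, and 63 bases with cnc on the opposite strand.

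**Figure D4:**
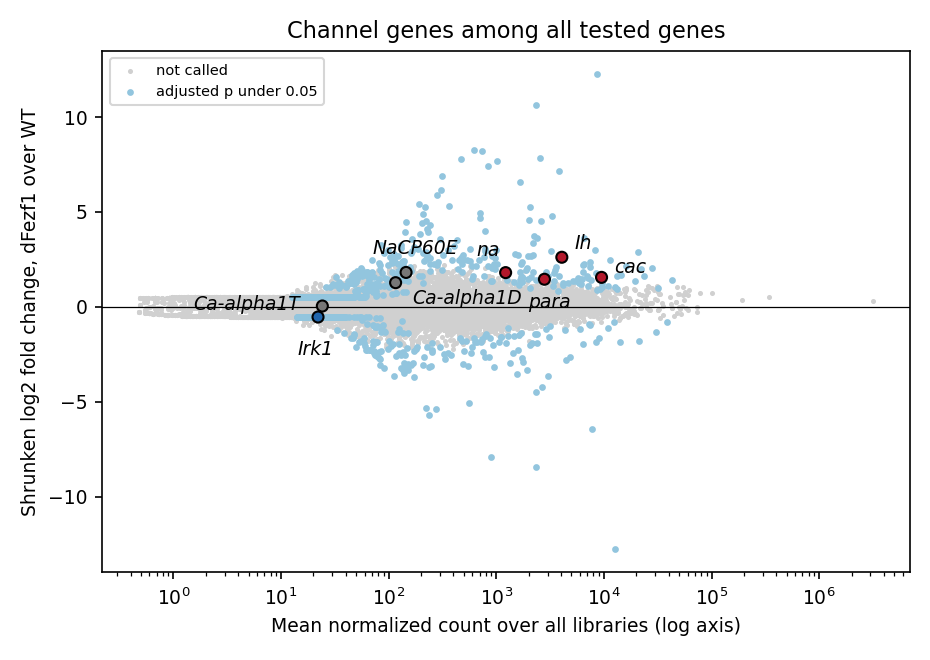
Shrunken log2 fold change of dFezf1 over WT against average normalized count for all 9387 tested genes of the authors' deposited table, with the 8 tested channel genes marked (red, called higher; blue, called lower; grey, not called). cac has a count of 9514, Ih of 4068, para of 2804 and na of 1222, while Irk1 and Ca-alpha1T lie near 22.1 and 24.2.

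Levels of other potassium leak and inward rectifier genes differed widely. Of 11 such genes 3 were at 0 in both genotypes and 4 more were under 1 in both in the authors' deposited table. CG1688, of the two-pore-domain family, was at 43.5 in dFezf1 and 35.2 in WT, with a log2 change of 0.38 ± 0.28 per the authors' deposited table. Task7 of the same family was at 30.5 in dFezf1 and 23.0 in WT, with a log2 change of 0.34 ± 0.54 per the authors' deposited table. Its relative Task6 was at 23.1 in dFezf1 and 14.4 in WT, with a log2 change of 0.68 ± 0.45 per the authors' deposited table. None of these 3 was called. Of the 8 tested genes of this list 1 was called in the authors' deposited table, beside 6.82% of all tested genes. It was CG42594, a further gene of the two-pore-domain family on chromosome X, at 9.39 in dFezf1 and 1.20 in WT. Its log2 change was 2.73 ± 0.58, with an adjusted p of 7.49e-05 per the authors' deposited table. Within CG42594 lies boil on the same strand. The average normalized count of boil was 247 in the authors' deposited table, against 1603 for CG42594.

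**Figure D5:**
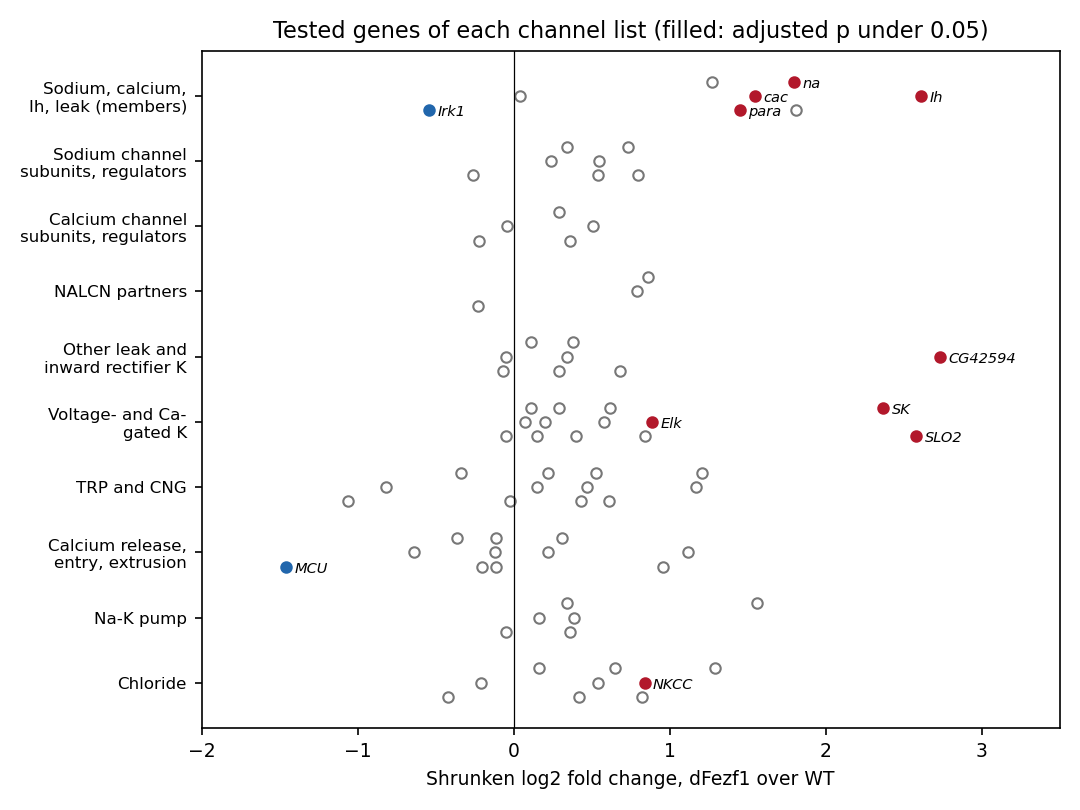
Shrunken log2 fold change of dFezf1 over WT for each tested gene of the 10 members and of 9 further lists of channel, subunit and transport genes, from the authors' deposited table; points are spread vertically only for legibility. Filled points were called at an adjusted p under 0.05 and are named, and in the lists of sodium channel subunits, calcium channel subunits and NALCN partners every point is open. Shawl and the RGK genes are not drawn.

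Lists of further ion transport genes place the members in context. The list of 13 tested voltage- and calcium-gated potassium channel genes had 3 called higher in the authors' deposited table. Over all tested genes 4.33% were called higher. The median log2 change of the 13 was 0.40. That list leaves out Shawl, a Shaw-like voltage-gated potassium channel gene named here after its values were seen, which was called lower. Shawl was at 2.66 in dFezf1 and 9.22 in WT, with a log2 change of -1.52 ± 0.49 and an adjusted p of 0.0307 per the authors' deposited table. With Shawl, per the authors' deposited table, 3 of 14 genes were called higher and 1 lower. The genes called higher were SK, SLO2 and Elk. SK, the gene of a small-conductance calcium-activated channel, was at 30.4 in dFezf1 and 5.05 in WT in the authors' deposited table. Its log2 change was 2.37 ± 0.49, with an adjusted p of 3.99e-05 per the authors' deposited table. SLO2, a potassium channel gene of the Slo family, was at 0.593 in dFezf1 and 0.0330 in WT with a log2 change of 2.58 ± 0.77 per the authors' deposited table, and SLO2 holds several other genes within its span. Elk was at 0.467 in dFezf1 and listed at 0 in WT in the authors' deposited table, at an average normalized count of 61.5. Its log2 change was 0.89 ± 0.68, with an adjusted p of 0.0294. The interval of Elk, -0.45 to 2.23, includes 0. The rules on counts and on group means leave Elk out of the test. The Shaker gene Sh, the most abundant of the list at 49.2 in dFezf1 and 46.6 in WT, had a log2 change of 0.15 ± 0.44 per the authors' deposited table.

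Further lists covered the sodium-potassium pump, calcium release, entry and extrusion, and chloride channels with cation-chloride transporters. None of the 6 tested sodium-potassium pump genes was called in the authors' deposited table (1, CG33310, at an unadjusted p under 0.05), and the catalytic subunit gene Atpalpha was at 125 in dFezf1 and 102 in WT. Of 11 tested calcium release, entry and extrusion genes, MCU, the gene of the mitochondrial calcium uniporter, was called lower in the authors' deposited table. MCU was at 2.0 in dFezf1 and 7.09 in WT, with a log2 change of -1.46 ± 0.48 and an adjusted p of 0.0401 per the authors' deposited table. The adjusted p of MCU passed neither at an average normalized count of at least 100 nor among genes above 0 in both genotypes. Within MCU lies jv on the opposite strand, and MCU shares 3 bases with ndl. Of 9 tested chloride channel and cation-chloride transporter genes, NKCC was called higher in the authors' deposited table, at 0.493 in dFezf1 and 0 in WT, with a log2 change of 0.84 ± 0.67 and an adjusted p of 0.0475. Over all 9 lists, 6 of 74 tested genes (8.11%) were called in the authors' deposited table, near the 6.82% of all tested genes. With Shawl and the RGK genes, added with their values known, 8 of 78 (10.3%) were called, 5 as higher and 3 as lower, per the authors' deposited table. In the authors' own category of membrane transporters, which holds 9 of the 10 members, 47 of 500 tested genes (9.40%) were called, 33 higher and 14 lower, per the authors' deposited table.

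Features that the choice by symbol did not use were also compared. All 10 members had a summed exon length over the 2104 bases that are the median of tested genes, with 16309 bases in para and 2497 in Irk2. Of the members 5, para, cac, Ca-alpha1T, na and Ork1, lie on chromosome X, and 3 of these are among the 4 called higher. Over all tested genes of chromosome X, 5.79% were called per the authors' deposited table, 3.96% as higher and 1.83% as lower.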

How the data were processed

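RNA of sorted L3 neurons was measured in 3 dFezf1 and 3 WT samples, grouped by the genotype labels. Per the labels' protocols, total RNA was taken through Smart-seq2 and Nextera library preparation. Per the submitters' processing notes, the tools were DESeq2, FastQC, Salmon and STAR, without versions, on build BDGP6; their roles are not stated there. Per the file headers, the authors' deposited comparison holds a mean normalized count (a signal), a log2 fold change with its SE, a test statistic (a score), p-values and adjusted p-values, and the group mean abundance signals named wt and mutant. Deposited p-values matched the two-sided normal probability of the statistic in 9755 of 9755 genes, within 0.001, and the authors' adjusted p-values equalled Benjamini-Hochberg values over 9387 genes. In 3798 genes the fold change over its SE differed from the statistic by 1% or more, as shrinkage gives. In all 640 called genes the group means had the sign of the fold change. Across 5782 genes the quotient of normalized count and group means had a Spearman correlation of 0.951 with exon length, a description of the unit.

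A further 12 columns of values per library carry codes that match no sample label and were not used. The comparison is therefore the authors' own, and depth per library, replicate spread and the planned edgeR fit are not given. Positions were taken from the BDGP6 annotation; deposited start and end were equal to it for all 10 members, 9 by identifier and para by symbol. Benjamini-Hochberg adjustment was repeated for the alternatives and tested on simulated data (Python 3.11.15, pandas 2.3.3, numpy 2.4.6, SciPy 1.17.1). Named genes are the 10 members, erm, called genes of 9 lists, all genes of the 3 subunit lists and protein-coding genes overlapping members. Further genes were named with their values known. Of the markers and of TRP and cyclic-nucleotide-gated genes these are elav, Syn, svp, norpA, nSyb, brp, Syt1, CadN, Cngl, CngA, CngB, trp, nan, trpl and iav. The rest are CG1688, Task6, Task7, Sh, CG33310, Atpalpha, boil, jv, ndl, Shawl and the RGK family. Ssk, no channel gene and not called, was taken out of a list after its value was seen. Members and lists were chosen with earlier results of these data known.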

Additional observations from a re-analysis of the deposited data

How the results depend on the processing

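The counts below are from the authors' deposited table. Over all tested genes 406 were called higher and 234 lower. At a minimum normalized count of 100 these were 190 and 107, with both group means above 0 they were 159 and 95, and with a 95% interval that also excludes 0 they were 223 and 136. Of the channel members 4 were called higher, except at an adjusted p under 0.01, where 2 were, without para (0.0246) and na (0.0222). With both group means above 0 the adjusted p was 0.0459 for para and 0.0425 for na. Irk1, the 1 member called lower, left 0 calls at that minimum count, with both group means above 0 (both leave it out of the test) and with the interval rule. Of the potassium channel list, 3 were higher, and 1 at an adjusted p under 0.01. Without Elk, 2 were higher at that minimum count, with both group means above 0 and with the interval rule. Adding Shawl to it, and the RGK genes to the calcium channel subunit list, both chosen after seeing the data, gave 1 lower call in each, where there were 0. MCU and NKCC, the 1 call in each of their lists, gave 0 calls at 0.01, at that minimum count and with both means above 0, and NKCC also by the interval. Without a filter on low counts no count moved by over 1.5 times. The log2 ratio of group means was 8.06 for Ih, 4.72 for NaCP60E and 4.09 for Ca-alpha1D. None of the 7 tested members with both means above 0 changed sign, while 4 of 69 such list genes did, from shrunken fold to ratio: sei (0.11, -0.22), Shal (0.20, -0.02), CG42340 (0.11, -0.05) and CngA (-0.02, 0.07). Leaving out a replicate and the edgeR fit were not run. No paired analysis was run, because the labels link no dFezf1 sample to a WT sample. No depth is known, which limits what can be said of the scarce members.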
